A study of Mus musculus with 6 samples.

Results

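Fos, Fosb, Jun, Junb, Jund, Egr1, Atf3, Nr4a1 and Nr4a3 are 9 transcription factors, most of which cells switch on quickly after a stimulus, and they were chosen here by name. Of these, 8 were analysed among 13003 genes, and *Fosb* was not analysed here. RNA-seq profiles were taken from ventricular myocardium of 3 WT mice, labelled replicates 1, 3 and 4, and of 3 mice homozygous for a nonsense allele in *Dst-b*, labelled replicates 1, 2 and 3. *Dst-b* is the isoform of the cytoskeletal linker dystonin that muscle uses. The allele was made by CRISPR on the C57BL/6J background, homozygotes came from crosses of heterozygotes, and all mice were 14 to 19 months old. Several mutant lines were generated in the study, and which of them gave these libraries is not stated in the sources used here. Each library came from 1 heart, so the replicates are separate mice.

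Immediate-early genes are transcribed from promoters that stand ready, without new protein being made first, when MAP kinases, calcium or cyclic AMP activate factors such as SRF and CREB. Fos and Jun proteins pair to form AP-1, Egr1 is a zinc-finger activator, Atf3 is a stress-induced member of the same leucine-zipper class as Fos and Jun, and the Nr4a proteins are nuclear receptors that act without a known hormone. In the heart most of these genes are known for brief induction by stretch, adrenergic signals and injury, and for short-lived mRNAs.

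The promoters of *Fos*, *Nr4a1* and *Nr4a3* are shown because these genes had the largest standard errors of the 8. Short elements also recur in those of *Nr4a1* and *Nr4a3*. Sequences are from RefSeq (GRCm38.p6), plus strand, 5′ to 3′, in windows of 30 bases taken from the 250 bases before the start site that the promoter table uses, and capitals mark matches to the motifs searched. For *Nr4a1* and *Nr4a3* that start site lies inside the gene span given below, not at its first base. The *Nr4a1* windows all lie within the *Nr4a1* span, 101253902 to 101274795. The *Nr4a3* windows 2 and 3 and part of window 1 lie within the *Nr4a3* span, 48045078 to 48086447. The *Fos* windows lie before the *Fos* span. In *Nr4a3* all the capitals spell TGACGT, the opening letters of the cyclic AMP response element. In *Nr4a1* they spell TGCGTCA, which is TGACGCA on the other strand and lies 1 letter away from the AP-1 site TGACTCA, and CGCCCCCGC, which is the EGR site GCGGGGGCG on the other strand. In *Fos* they mark TGACGT and the TATA box TATAAA.
Nr4a3 window 1, chr4:48045062-48045091: ggaggaggagggTGACGTagcgtcccatgt
Nr4a3 window 2, chr4:48045088-48045117: atgtcgtcacatTGACGTctcgcattccag
Nr4a3 window 3, chr4:48045146-48045175: ctgtggcataaaTGACGTgccgagagagcg
Nr4a1 window 1, chr15:101266610-101266639: cTGCGTCAatggaaccccgcgTGCGTCAcg
Nr4a1 window 2, chr15:101266770-101266799: ccgtgTGCGTCAgtggCGCCCCCGCccctc
Nr4a1 window 3, chr15:101266793-101266822: gcccctctccaTGCGTCAcggagcgcttaa
Fos window 1, chr12:85473812-85473841: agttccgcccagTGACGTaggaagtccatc
Fos window 2, chr12:85473845-85473874: tcacagcgcttcTATAAAggcgccagctga

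The *Nr4a3* promoter held TGACGT 3 times, beginning 231, 205 and 147 bases before the start site used, and 0.152% of 32851 promoters of the same length held it 3 or more times on either strand. The *Nr4a1* promoter held TGACGCA 4 times, beginning 235, 215, 71 and 42 bases before the start site used. Only 1 of the 32851 promoters (0.00304%) held 3 or more matches, and that 1 is the *Nr4a1* promoter itself. Both short motifs were added after the promoters had been read, so these shares describe the sequences and test nothing. At least 1 TGACGT was present in 6.47% of all promoters and in 3 of the 8 member promoters searched, which were those of all members except *Egr1* (*Fos*, *Atf3* and *Nr4a3*), and TGACGCA in 1.75% of all and in 2 of the 8 (*Fosb* and *Nr4a1*). GCGGGGGCG was present in *Fosb* and *Nr4a1* (2.57% of all promoters) and TATAAA in *Fos* (12.4% of all). Among the 13170 promoters of tested genes the shares were 9.48% for TGACGT, 2.78% for TGACGCA and 4.77% for GCGGGGGCG, all higher. For TATAAA the share there was lower, at 6.66%. None of these 8 promoters of 250 bases held the AP-1 site TGACTCA (4.46% of all), the whole cyclic AMP response element TGACGTCA (1.55%, which contains TGACGT), the EGR site GCGTGGGCG (0.536%), the Nr4a site AAAGGTCA (1.34%) or the CArG box bound by SRF (1.47%), which says only that these letters are not in these stretches.

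Depth was 40693854 to 57580110 tags per library, a tag being the unit the authors counted for a gene. Counts are given as CPM, the count relative to the TMM-scaled library total, and genes are compared with each other in RPKM, which also divides by exon length. *Dst* itself, summed over its isoforms, was at 423 to 473 CPM in the WT libraries and 414 to 457 CPM in the mutant libraries, so the total does not check the genotype labels. Some libraries stood apart. WT replicate 3 had the highest summed level of 4 atrial markers (427 CPM, against 50.6 to 247 CPM in the others), and WT replicate 4 differed from all others by 2-fold or more in 3 genes that were higher there and 11 that were lower. Mutant replicate 2 had *Xist* at 204 CPM, against at most 0.299 CPM in the other libraries. It had no tags of the Y-linked genes *Ddx3y* and *Kdm5d*, and *Ddx3y* was at 113 to 138 CPM in the others. These are the values of a female mouse in mutant replicate 2 and of male mice in the others, though the labels give no sex. The only female library was thus a mutant one, and sex was not in the model.

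A gene was called when edgeR's quasi-likelihood test gave a p under 0.01 and a Benjamini-Hochberg adjusted p under 0.1 over all 12955 genes tested. Of the members 1, *Nr4a3*, fell in the mutant hearts, none rose, and 7 were not called. All 8 analysed members had a CPM above 1 in each of the 6 libraries, so the filter on low counts removed none of them. Over all genes tested, 4.64% were called, 1.84% lower and 2.80% higher. The median log2 fold change of the members, mutant against WT, was -0.12, beside a median of 0.00 over all genes, with 3 members positive and 5 negative. Values of the WT and mutant libraries did not overlap for 1 of the 8 members, against 21.9% of all genes.

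**Figure D1:**
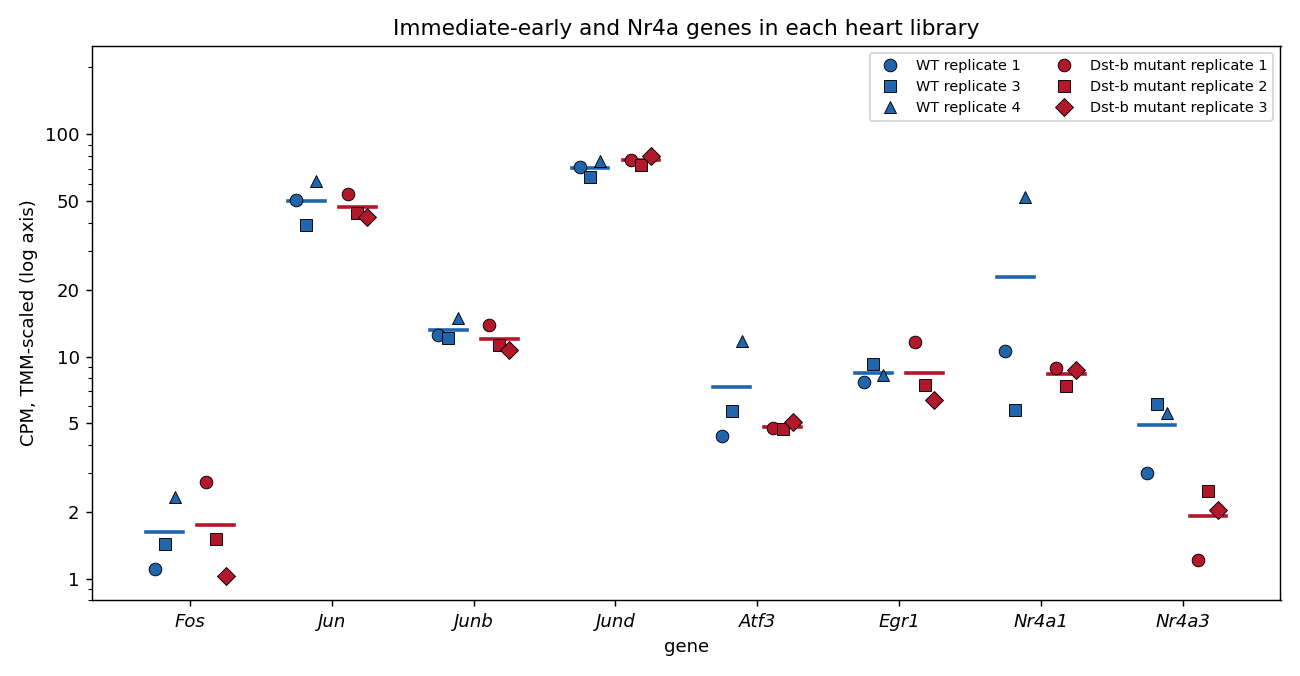
Level of the 8 analysed members in each of the 6 heart libraries, in TMM-scaled CPM on a log axis, with 1 point per library (blue WT, red Dst-b mutant) and a horizontal bar at the mean of 3 mice. The *Nr4a3* points of the genotypes are apart, at 3.00 to 6.11 CPM in WT and 1.22 to 2.49 CPM in mutant libraries, and the WT replicate 4 triangle for *Nr4a1* stands alone at 52.2 CPM.

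*Nr4a3* (chromosome 4, 48045078 to 48086447, GRCm38) encodes the nuclear receptor NOR-1. Its level was 3.00, 6.11 and 5.60 CPM in WT replicates 1, 3 and 4, and 1.22, 2.49 and 2.03 CPM in mutant replicates 1, 2 and 3. The highest mutant library was below the lowest WT library, and the 3 WT values spanned a 2.04-fold range themselves. The WT mean was 4.90 ± 1.67 CPM (SD, n = 3) and the mutant mean 1.91 ± 0.647 CPM (SD, n = 3). The log2 fold change was -1.35 (standard error 0.33, 95% interval -2.07 to -0.62, adjusted p = 0.0664, edgeR's quasi-likelihood test), a WT level 2.54 times the mutant level. These values rest on 57 to 259 tags per library. The exact Poisson interval (95%, counting error only) reached 2.93 CPM in mutant replicate 2 and went down to 2.56 CPM in WT replicate 1, so the nearest libraries of the 2 genotypes are not apart by counting alone. In a bulk sample, fewer cells of a type and less RNA per cell cannot be told apart.

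The *Nr4a3* call depended on which libraries were included. It was kept without WT replicate 1 (adjusted p = 0.0476) and without mutant replicate 2 (adjusted p = 0.0652), and lost without WT replicate 3 (0.170), WT replicate 4 (0.145), mutant replicate 1 (0.230) or mutant replicate 3 (0.145), all from edgeR's quasi-likelihood test. The log2 fold change stayed between -1.61 and -1.11 in these 6 fits. Some markers of other cell types and of cardiomyocytes were called as well. Of 6 mural cell markers 4 were called lower, with a summed level of 845 to 925 CPM in WT and 642 to 773 CPM in mutant libraries, and 1 to 4 were called in the fits without 1 library (1, *Kcnj8*, without mutant replicate 1). Of 6 endothelial markers 2 were called lower (1029 to 1176 CPM and 923 to 1045 CPM), but 0 in each fit without 1 library other than that without mutant replicate 2, where 3 were. Of 6 fibroblast markers 1, *Col1a1*, was called higher (1608 to 1829 CPM and 1650 to 1850 CPM), also in all 6 fits without 1 library. Of 7 cardiomyocyte markers 1, *Myl3*, was called lower (-0.27 on the log2 scale, adjusted p = 0.0836, edgeR's quasi-likelihood test), in 2 of the 6 fits without 1 library, with summed levels of 90318 to 92678 CPM in WT and 86331 to 96465 CPM in mutant libraries. Of 3 atrial markers tested none was called (median log2 fold change -0.73). Summed over the 4 atrial markers, the level was 112, 427 and 130 CPM in WT replicates 1, 3 and 4. It was 50.6, 97.9 and 247 CPM in mutant replicates 1, 2 and 3. WT replicate 3 was thus the highest and mutant replicate 1 the lowest, as for *Nr4a3*. Mutant replicate 3 was above WT replicates 1 and 4 in this sum, but below them in *Nr4a3*. The part of any of these cells in the *Nr4a3* difference was not tested.

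*Nr4a1* (chromosome 15, 101253902 to 101274795) encodes the nuclear receptor Nur77. Its level was 10.6, 5.74 and 52.2 CPM in WT replicates 1, 3 and 4, and 8.92, 7.34 and 8.69 CPM in mutant replicates 1, 2 and 3. WT replicate 4 was 4.93 times the next library, while WT replicates 1 and 3 lay on either side of all 3 mutant libraries. The WT mean was therefore 22.8 ± 25.5 CPM (SD, n = 3) against 8.32 ± 0.850 CPM (SD, n = 3) in the mutants. A difference of -1.46 on the log2 scale (standard error 0.63, 95% interval -2.86 to -0.06) was not called (adjusted p = 0.281, edgeR's quasi-likelihood test). Without WT replicate 4 it was 0.02 (95% interval -0.50 to 0.53, adjusted p = 0.985, same test), so the direction rested on that library. In WT replicate 4 *Nr4a3* was also high, the second of the 6 libraries, whereas WT replicate 3 had the lowest *Nr4a1* and the highest *Nr4a3*.

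The make-up of the Nr4a family differed between libraries. Of the summed RPKM of *Nr4a1*, *Nr4a2* and *Nr4a3*, *Nr4a1* made up 89.2% in WT replicate 4 and 47.0% in WT replicate 3, and *Nr4a3* 9.18% and 47.9%. WT replicate 1, at 74.9% *Nr4a1* and 20.4% *Nr4a3*, lay within the mutant ranges. In the mutant libraries *Nr4a1* made up 71.3% to 83.4% of the family and *Nr4a3* 10.9% to 23.2%. The family sum was 23.5 RPKM in WT replicate 4 and 4.23 to 5.67 RPKM in the other 5 libraries. *Nr4a2* (Nurr1) was low everywhere, at 0.302 ± 0.0732 RPKM in WT and 0.306 ± 0.114 RPKM in mutant libraries (SD, n = 3), and did not pass the filter for the test.

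*Atf3* (chromosome 1, 191170296 to 191183333), which encodes a stress-induced leucine-zipper repressor, was at 4.37, 5.67 and 11.7 CPM in WT replicates 1, 3 and 4, and at 4.76, 4.70 and 5.06 CPM in mutant replicates 1, 2 and 3. WT replicate 4 was again the highest, 2.07 times the next library, and the 3 mutant values lay within a 1.08-fold range. The log2 fold change of -0.58 (standard error 0.31, 95% interval -1.27 to 0.11) was not called (adjusted p = 0.386, edgeR's quasi-likelihood test), and without WT replicate 4 it was -0.05 (adjusted p = 0.939, same test).

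**Figure D2:**
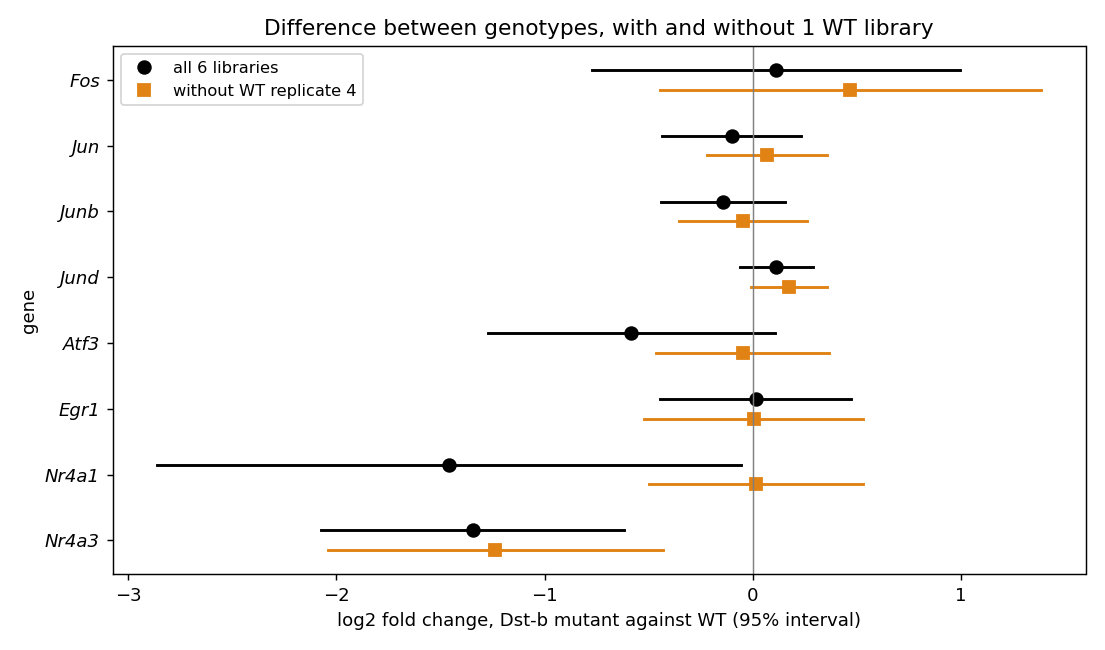
Log2 fold change of each member, Dst-b mutant against WT, with its 95% interval from edgeR's quasi-likelihood fit, over all 6 libraries (black circles) and without WT replicate 4 (orange squares). *Nr4a1* moves from -1.46 to 0.02 and *Atf3* from -0.58 to -0.05 without that library, while *Nr4a3* moves from -1.35 to -1.24.

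Among the Jun genes, *Jund* (chromosome 8, 70697739 to 70700616), the member of the family that is expressed steadily in many tissues, was at 71.4, 64.2 and 76.2 CPM in WT replicates 1, 3 and 4, and at 76.8, 72.8 and 79.8 CPM in mutant replicates 1, 2 and 3. The genotypes overlapped and the log2 fold change was 0.11 (standard error 0.08, 95% interval -0.06 to 0.29, adjusted p = 0.517, edgeR's quasi-likelihood test). *Jun* (chromosome 4, 95049036 to 95052222), which encodes the main transactivating partner in AP-1, was at 50.4, 39.0 and 61.5 CPM in the WT libraries and 54.0, 44.2 and 42.6 CPM in the mutant libraries. WT replicates 3 and 4 held the lowest and the highest value, with the mutants between them, and the log2 fold change was -0.10 (95% interval -0.44 to 0.23, adjusted p = 0.795, same test). *Junb* (chromosome 8, 84976909 to 84978748), a weaker activator than Jun, was at 12.5, 12.2 and 14.98 CPM in WT and 13.9, 11.3 and 10.7 CPM in mutant libraries. Its values overlapped too, with a log2 fold change of -0.14 (95% interval -0.44 to 0.15, adjusted p = 0.651, same test). As multiples of the WT level, the intervals leave room for a mutant level of 0.740 to 1.18 for *Jun*. They leave room for 0.737 to 1.11 for *Junb* and 0.958 to 1.22 for *Jund*.

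*Fos* (chromosome 12, 85473890 to 85477274), the classical partner of Jun, had the lowest mean RPKM of the 8 over all 6 libraries, though *Nr4a3* was lower in the mutant hearts. It was at 1.11, 1.43 and 2.33 CPM in WT replicates 1, 3 and 4, and at 2.73, 1.503 and 1.03 CPM in mutant replicates 1, 2 and 3, from 47 to 128 tags per library. The highest and the lowest value were both in mutant libraries. Its log2 fold change was 0.11 with a wide 95% interval of -0.77 to 0.996 (adjusted p = 0.924, edgeR's quasi-likelihood test), which leaves room for a mutant level between 0.585 and 1.99 times the WT level.

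*Egr1* (chromosome 18, 34861207 to 34864956), the zinc-finger factor, was at 7.66, 9.24 and 8.28 CPM in WT replicates 1, 3 and 4, and at 11.6, 7.48 and 6.35 CPM in mutant replicates 1, 2 and 3. As for *Fos*, mutant replicate 1 was the highest and mutant replicate 3 the lowest, with the WT libraries between them. The log2 fold change was 0.01 (standard error 0.21, 95% interval -0.45 to 0.47, adjusted p = 0.982, edgeR's quasi-likelihood test).

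Several members varied widely among mice of the same genotype. WT replicate 4 was the highest library for 4 of the 8 members (*Jun*, *Junb*, *Atf3* and *Nr4a1*) and among the upper 2 for 6 of them. Mutant replicate 1 was the highest for *Fos* and *Egr1*, and mutant replicate 3 and WT replicate 3 were each the lowest for 3 members. The median standard error of the members' log2 fold changes was 0.26, against 0.11 over all genes. Set beside genes within a 2-fold range of its own CPM, *Nr4a1* had a larger standard error than 99.9% of them, *Atf3* than 98.1%, *Jun* than 96.9%, *Nr4a3* than 94.1%, *Fos* than 91.6% and *Egr1* than 91.0%. *Junb* (63.9%) and *Jund* (58.4%) were closer to the middle.

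**Figure D3:**
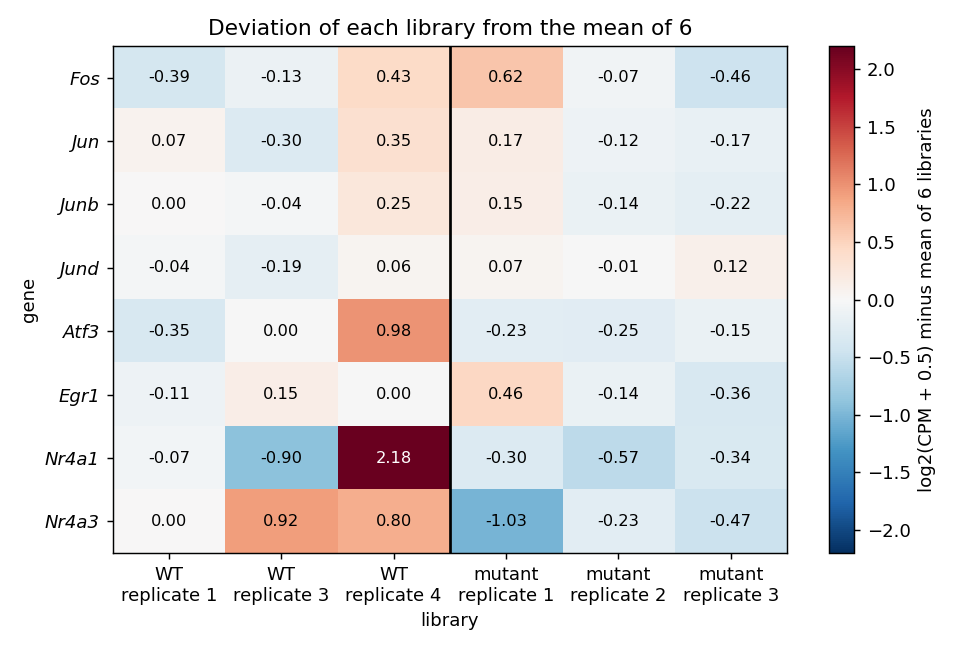
Deviation of each library from the mean of the 6, in log2(CPM + 0.5), for the 8 members (rows), with WT libraries left of the black line and Dst-b mutant libraries right of it. The deepest red cell is *Nr4a1* in WT replicate 4 (2.18), *Nr4a3* is at 0.00 to 0.92 in the WT and -1.03 to -0.23 in the mutant libraries, and *Jund* stays within -0.19 and 0.12.

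WT replicate 4 stood apart in a small set of genes. Among 10424 genes whose CPM averaged 5 or more, those at least 2 times as high there as in every other library were *Nr4a1*, *Cdc42bpg* (145 CPM, against 41.4 to 46.4 CPM) and *Atf3*. Another 11 genes were at least 2 times lower there than in every other library, and those named here were picked after their values were seen. Among them were *Pdk4* (108 CPM, against 772 to 1410 CPM), the kinase that switches the heart from glucose to fatty acid oxidation, *Angptl4* (2.66 CPM, against 23.7 to 39.7 CPM), an inhibitor of lipoprotein lipase, and *Ucp3* (23.5 CPM, against 80.6 to 99.7 CPM), a mitochondrial carrier raised by fasting. *Fkbp5* (14.7 CPM, against 36.0 to 66.9 CPM) and *Zbtb16* (19.9 CPM, against 63.1 to 92.9 CPM), both well-known glucocorticoid-responsive genes, were also low there. The other 5 libraries each had 0 to 3 genes above and 0 to 7 genes below all others by the same measure. What these genes have to do with the *Nr4a1* and *Atf3* levels was not tested.

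The genes whose profile over the 6 libraries was most like that of *Nr4a1*, by the root mean square difference of centred log2(CPM + 0.5) among 10418 candidates, were *Cdc42bpg* (0.417), *Sik1* (0.535), *Irs2* (0.627), *Apold1* (0.653) and *Irx4* (0.674). *Sik1*, a kinase gene induced by cyclic AMP signals, was at 32.1, 17.8 and 53.2 CPM in WT replicates 1, 3 and 4, and at 19.7, 20.6 and 16.3 CPM in mutant replicates 1, 2 and 3. Like *Nr4a1* it was highest in WT replicate 4 and second in WT replicate 1. For the mean profile of the members they were *Dpysl4* (0.0490), *Actg1* (0.0538), *Scd2* (0.0628), *Zfp46* (0.0724) and *Btg2* (0.0792), and *Btg2*, itself a primary response gene, was at 51.6 CPM in WT replicate 4 and 24.3 to 29.3 CPM in the others. For *Fos* they were *Ddx60* (0.147), *Stxbp2* (0.180), *Wisp2* (0.195), *Tpmt* (0.197) and *Aif1* (0.197), and for *Egr1* they were *Ptpn6* (0.109), *Aplp1* (0.110), *Lyl1* (0.113), *Eya2* (0.120) and *Wibg* (0.121). By this measure a gene without any variation would be at 1.01 from *Nr4a1* and 0.293 from the mean profile. It would be at 0.398 from *Fos* and 0.256 from *Egr1*, so the nearest genes are not all close.

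Per length, the members spanned more than an order of magnitude. In WT hearts the order of mean RPKM was *Jund* (24.4 ± 2.06), *Jun* (15.7 ± 3.48), *Nr4a1* (9.16 ± 10.2), *Junb* (7.15 ± 0.814), *Atf3* (3.36 ± 1.82), *Egr1* (2.72 ± 0.263), *Nr4a3* (1.89 ± 0.644) and *Fos* (0.771 ± 0.301), each with its SD over 3 mice. The ranges of *Jun* and *Nr4a1*, of *Nr4a1* and *Junb*, and of *Atf3* and *Egr1* overlapped, so these neighbours did not differ beyond their spread. In mutant hearts *Jund* (26.7 ± 0.846), *Jun* (14.8 ± 2.17), *Junb* (6.55 ± 1.03) and *Nr4a1* (3.37 ± 0.330) were followed by *Egr1* (2.78 ± 0.943), *Atf3* (2.26 ± 0.0440), *Fos* (0.845 ± 0.435) and *Nr4a3* (0.743 ± 0.252). There *Nr4a3* lay below *Fos*, with overlapping ranges, and the range of *Egr1* overlapped those of *Nr4a1* and *Atf3*. Over all 6 libraries *Jund* was above 81.8% of the listed genes in mean RPKM and *Fos* above 9.94%, where the median gene was at 5.90 RPKM. Of the RPKM summed over the 6 Fos and Jun family genes listed, *Jund* made up 43.1% to 54.3% and *Fos* 0.960% to 2.30%.

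Genes around the members were described by 8 lists of relatives, regulators and targets. Of 130 genes tested on them, 7 were called higher and 2 lower (6.92% called, against the 4.64% of all genes), and no list was tested as a whole. None of the 10 relatives and partners of AP-1 proteins was called (median log2 fold change -0.02). *Fosl2*, the Fos relative also called Fra-2, was at 23.5, 21.5 and 35.3 CPM in WT and 18.2, 20.6 and 16.6 CPM in mutant libraries. Its ranges did not overlap, yet its log2 fold change of -0.53 missed the call (adjusted p = 0.155, edgeR's quasi-likelihood test), and *Maff*, a small Maf partner, was at 0.34 (adjusted p = 0.476, same test). The Nab co-repressors of Egr proteins, *Nab1* (-0.17) and *Nab2* (-0.35), were not called either, at adjusted p of 0.648 and 0.278 (same test).

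Of 38 other primary response genes, 2 were called higher and 1 lower (median log2 fold change -0.07). *Myc*, the growth regulator, was at 3.33, 2.93 and 1.97 CPM in WT and 4.76, 5.52 and 5.46 CPM in mutant libraries, which is 0.93 higher on the log2 scale (standard error 0.22, adjusted p = 0.0584, edgeR's quasi-likelihood test). *Ier5*, an immediate-early gene linked to the heat shock response, rose by a log2 fold change of 0.46 (adjusted p = 0.0574, same test), and *Gadd45a*, a stress-induced growth-arrest gene, was lower at -0.52 (adjusted p = 0.0584, same test). Leaving out WT replicate 3, WT replicate 4 or mutant replicate 1 ended all 3 calls, and over the 6 fits that each left out 1 library *Ier5* was called in 3, *Myc* in 1 and *Gadd45a* in 1. *Sik1*, at -0.87 over all 6 libraries, was not called (adjusted p = 0.187, same test). Without WT replicate 3 the list turned to 0 called higher and 3 called lower, which were *Sik1*, *Klf2* and *Per1*, the last 2 named after their values were seen.

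Upstream of the members, none of 14 MAP kinase phosphatases and Sprouty-type inhibitors was called (median log2 fold change -0.04), with *Dusp7* at -0.23 (adjusted p = 0.154) and *Dusp4* at 0.72 (adjusted p = 0.278, edgeR's quasi-likelihood test for both). None of 18 SRF, MRTF, TCF, CREB and MEF2 factors was called (median -0.02), with *Mkl2*, the SRF co-activator MRTF-B, at 0.30 (adjusted p = 0.173) and *Hdac4*, a repressor of MEF2, at -0.24 (adjusted p = 0.212, same test). Of 20 genes for MAP kinases, for the kinases above them and for the Rps6ka kinases that they activate, 1 was called (median -0.07). *Mapk3*, which encodes ERK1, was at 94.2, 93.0 and 91.4 CPM in WT and 76.5, 76.7 and 77.2 CPM in mutant libraries. It fell by 0.27 on the log2 scale (standard error 0.06) and passed the call (adjusted p = 0.0454, same test), which it did in 2 of the 6 fits without 1 library.

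Textbook targets that AP-1 or Egr1 are known to activate formed another list. Of 19 such genes 3 were called higher and none lower (median 0.32 on the log2 scale). *Ctgf*, a matricellular protein of fibrosis, was at 53.5, 64.4 and 44.2 CPM in WT and 217, 248 and 185 CPM in mutant libraries (log2 fold change 2.01, standard error 0.14, adjusted p = 2.5e-04, edgeR's quasi-likelihood test). *Cd44*, the hyaluronan receptor, was at 8.42, 10.1 and 7.11 CPM and 23.6, 28.5 and 20.5 CPM (1.503 on the log2 scale, adjusted p = 0.00135, same test). In both genes the lowest mutant library was above the highest WT library, and both were called in all 6 fits without 1 library. *Spp1*, which encodes osteopontin, was at 0.95 (adjusted p = 0.0935, same test) and was called in none of those 6 fits. All of these targets answer to other factors as well.

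Of 11 heat-inducible chaperones 2 were called higher and none lower (median 0.09 on the log2 scale). The 9 not called ran from -0.32 (*Dnajb1*) to 0.42 (*Hspb1*), with *Hspa1a* at -0.04 and *Hspa1b* at -0.15. Those named among these 9 were picked after their values were seen. *Hsph1*, an HSP110 nucleotide exchange factor, was at 61.7, 63.9 and 53.0 CPM in WT and 88.7, 92.1 and 99.2 CPM in mutant libraries (log2 fold change 0.65, adjusted p = 0.00482, edgeR's quasi-likelihood test). *Hsp90aa1*, the inducible HSP90, was at 124, 145 and 115 CPM and 185, 210 and 183 CPM (0.59, adjusted p = 0.0118, same test). For either gene all mutant libraries were above all WT libraries, and both were called in all 6 fits without 1 library.

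**Figure D4:**
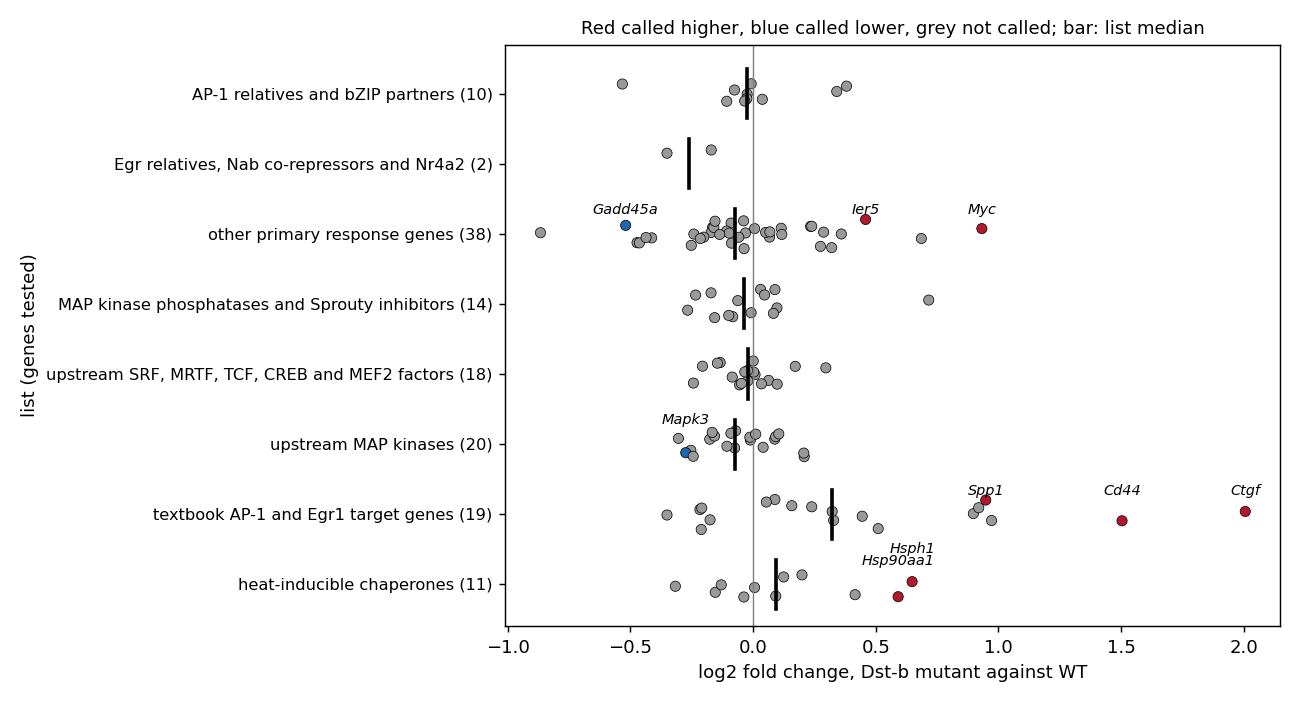
Log2 fold change, Dst-b mutant against WT, of every tested gene on the 8 lists, with the number tested in brackets, where each point is a gene and a thick bar marks the median of a list. The called genes are labelled: *Ctgf* (2.01) and *Cd44* (1.503) lie farthest right, and *Gadd45a* and *Mapk3* are the called genes left of 0.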

How the data were processed

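Per the study's methods, paired-end reads of poly-A RNA were aligned by OLego to the mouse genome GRCm38/mm10, and Quantas gave the level of each gene. The authors deposited, per gene and library, an RPKM and an estimated count, called tags. These estimated counts were not whole for 8.45% to 13.8% of genes and were rounded. What a tag stands for in paired-end data (each read, or each pair) is not given in the sources used here, and the kit is named differently in the methods (TruSeq) and the labels (NEBNext Ultra II Directional). The authors' RPKM were used for levels between genes only.

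The filter kept genes that reached a CPM of 1 in 3 or more libraries (12955 of 13003). The counts were scaled by TMM and tested by the two-sided quasi-likelihood test of edgeR 4.0.16 (R 4.3.3), in a model of genotype alone, with Benjamini-Hochberg adjustment across the genes tested. The biological coefficient of variation was 12.3%. Exact permutation of 3 mice against 3 cannot go below p = 0.1, so single values were not tested that way. Positions came from RefSeq by Entrez identifier, with 12979 genes matched, and 8 of the 9 members had a promoter. The tests were checked on simulated data. Alternatives were DESeq2 1.42.0, limma 3.58.1 with a trend on log2(CPM + 0.5), edgeR's exact test, other scalings and filters, a stricter adjusted p, a block for the replicate number and leaving out each library. Tables were made with Python 3.11.15.

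The members and all lists were chosen with earlier results of these data known. Named genes were the members, in each list at most 4 called genes with the smallest p or the 2 with the smallest p where none was called, and the 5 genes most like each of 4 profiles. The genes that mark single libraries were named after their values were seen.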

Additional observations from a re-analysis of the deposited data

How the results depend on the processing

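Of 118 member values under alternatives, 104 kept their direction and their side of the threshold. *Nr4a3* was called in 9 of the 13 alternative fits that tested it, at adjusted p of 0.00137 (DESeq2) to 0.230, and was always lower. The stricter threshold, where it was not called, is not counted among these 13. With an adjusted p under 0.05 the number of members called was 0, and with a mean CPM of at least 5 it was 0 because *Nr4a3* and *Fos* were not tested. Without 1 library each it was 0 to 1. Over all genes 601 were called, with 1028 by DESeq2, 304 at an adjusted p under 0.05, and 163 to 519 without 1 library. Directions turned for *Egr1* with limma (-0.026 on the log2 scale), and over the fits without 1 library for *Fos* (-0.35 to 0.47), *Egr1* (-0.28 to 0.18), *Jun* (-0.26 to 0.068) and *Nr4a1* (-1.92 to 0.016, turned without WT replicate 4). None of these was called in any fit, and the causes were not tested. Only replicate numbers 1 and 3 occur in both genotypes, and the deviations of the libraries that share them correlated at 0.0072 and -0.0492, so the numbers were not taken to pair the mice. With a replicate block 966 genes were called, *Nr4a3* still among them, and *Jun* (0.11) and *Nr4a1* (0.15) changed sign. In that fit WT replicate 4 and mutant replicate 2 have no partner and add nothing to the difference. It leaves 1 residual degree of freedom per gene, against 4 in the main fit. *Fos* and *Nr4a3* rest on 47 to 259 tags per library, and both also had larger standard errors than most genes of similar CPM (91.6% and 94.1% had smaller ones).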

Other observations

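The profile of *Nr4a3* over the 6 libraries, set beside other genes after its values had been seen, was most like those of *Ano10* (root mean square difference 0.324), *Gnb3* (0.338), *A530016L24Rik* (0.345), *Epn3* (0.351) and *Aplnr* (0.363), by the measure used for the other members. A gene without any variation would be at 0.684 from *Nr4a3*. *Aplnr*, the apelin receptor gene, was at 14.4, 15.8 and 22.9 CPM in WT replicates 1, 3 and 4, and at 8.60, 13.01 and 12.2 CPM in mutant replicates 1, 2 and 3. *Gnb3*, a G protein subunit gene, was at 15.3, 14.3 and 13.7 CPM in WT and 3.88, 8.59 and 7.16 CPM in mutant libraries. Both were lowest in mutant replicate 1, as *Nr4a3* was. The closeness to *Nr4a3* was what picked these genes, so their lower level in the mutant hearts is no separate evidence.

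WT replicate 1 was lower than every other library by 2-fold or more in 4 genes, seen after the values were known. The first was *Arntl*, a core clock gene (1.75 CPM, against 4.89 to 7.29 CPM in the other libraries). The rest were the red blood cell markers *Hba-a2* (23.4 CPM, against 55.0 to 160 CPM) and *Alas2* (2.46 CPM, against 5.38 to 14.1 CPM), and the globin gene *Beta-s* (46.3 CPM, against 106 to 269 CPM). For the members WT replicate 1 was the highest for none and the lowest for *Atf3*.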
